A study of Mus musculus with 10 samples.

Results

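The exons described here are alternative exons whose inclusion differed in the same direction in heart and in muscle from the other 8 tissues of a mouse tissue panel. The panel measured 3126 alternative splicing events on a splicing array, and 96 of them met the criteria: 47 exons were more included in both tissues and 49 were more skipped in both. They were chosen by the measured values themselves. An event first had to show both flanking exons at 2.1 units or more in heart, in muscle and in at least 6 of the other 8 tissues, which 1059 events did. In heart and in muscle its junction index then had to differ by 0.5 units or more, in the same direction, from the median over the other 8, with the body index on the same side in both. The shifts of heart and muscle are therefore a description of how the exons were picked, and they carry no test.

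The study profiled heart and muscle together with brain, intestine, kidney, liver, lung, salivary, spleen and testis, the tissue names being those of the labels. A single pool of total RNA stood for each tissue, taken from CD1 mice, an outbred stock, with no genotype, treatment, age or sex given in the sources used here. With 1 sample per tissue there was no spread between replicates, so the spread of the other 8 tissues is given beside each value in its place. In pooled tissue RNA, a larger share of cells that use an exon and a higher inclusion within each cell cannot be told apart. The labels say neither which muscle was taken nor which cells it held. Events carry numbers and no gene names, so the labelled tissues could not be checked against marker genes, and the exons are named by event number only.

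Most mammalian genes with several exons make more than one transcript. In the simplest form, a cassette exon (A) lies between flanking exons C1 and C2. Including it makes the junctions C1:A and A:C2, and skipping it makes the junction C1:C2. Heart and skeletal muscle are both striated muscle, and they are known for a shared programme of alternative exons, many of them in genes of the contractile apparatus, the cytoskeleton and membrane trafficking. RNA-binding proteins of the MBNL, CELF, RBFOX and PTB families are known regulators of such exons. Some exons used in striated muscle are also used in the brain, and PTB is known as a repressor of such exons in other tissues. That background was not measured here.

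Each event had 3 exon-body probes (C1, A and C2), 3 junction probes (C1:A, A:C2 and C1:C2) and a probe marked INT, whose target the sources used here do not state. The junction index subtracts C1:C2 from the average of both inclusion junctions. The body index subtracts the average of both flanking exons from A. Both are in units of the deposited scale, which is compressed and has no stated base, so no fold changes are given. Probes bind with different strength, so an index of 0 does not mean equal amounts of both forms, and only differences between tissues in the same index are read. Both indices are differences within an array and do not change when an array is centred. Array medians lay between 2.04 and 2.19 before centring. Probe values below are after centring, which can take a value deposited as 0 slightly below 0.

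The exons made up 9.07% of the 1059 events with measured flanks, 4.44% more included and 4.63% more skipped. Among the more included exons the index shift ran from 0.505 to 2.85 in heart, with a median of 1.25, and from 0.536 to 3.84 in muscle, with a median of 1.49. Among the more skipped exons it ran from -2.50 to -0.514 in heart, with a median of -1.11, and from -2.97 to -0.538 in muscle, with a median of -0.848. Shifts of at least 1 unit in both tissues were found in 23 of the more included exons and 11 of the more skipped ones. In muscle the median shift was thus larger in size for the more included exons, whereas in heart the medians of both groups were closer. The selection used these shifts, so no difference between the groups is read from them. Body shifts had medians of 0.892 in heart and 1.18 in muscle for the more included exons, and of -0.698 in heart and -0.697 in muscle for the more skipped ones.

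**Figure D1:**
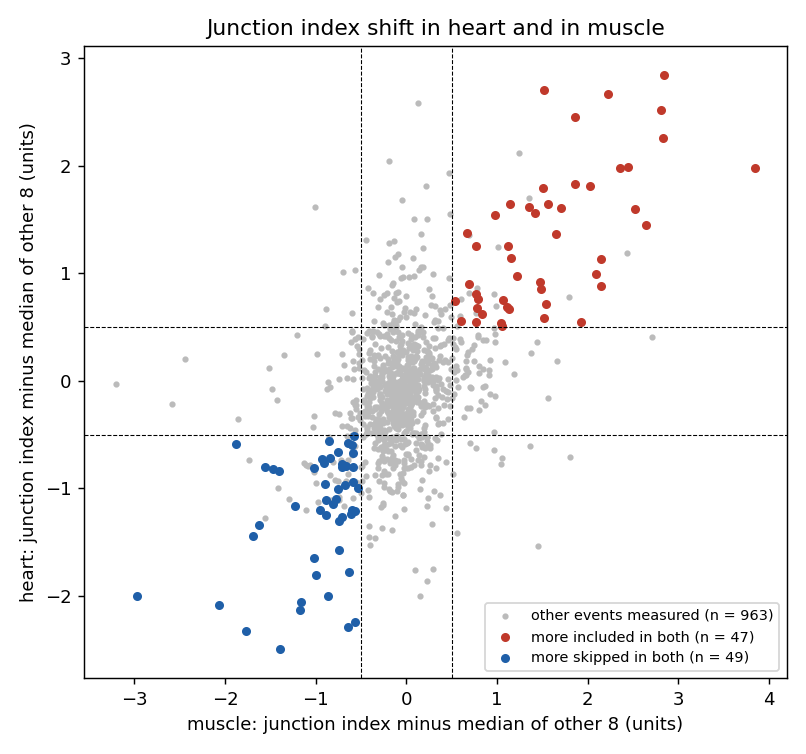
Junction index minus the median of the other 8 tissues, in heart (vertical axis, units) and in muscle (horizontal axis, units), for the 1059 events with measured flanks. Dashed lines mark 0.5 units, red points are the 47 more included exons, blue points the 49 more skipped ones, and grey points past both lines in 1 direction are events whose body index lay on the other side in at least 1 of the tissues.

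At the edge of the criteria the values lay close together. The exons just inside were Ben2108, with shifts of 0.505 in heart and 1.06 in muscle, and Ben4118, with -0.514 in heart and -0.576 in muscle. Ben733, with -1.04 in heart and -0.497 in muscle, and Ben3055, with -0.497 in heart and -0.571 in muscle, lay just outside. In total 146 events had junction shifts past the limit in the same direction in both tissues, and the body index lay on that side in both for 96 of them. The body index was at least 0.5 units off in both tissues for 56 exons, and within 0.1 units of the other tissues in at least 1 of them for 13.

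The probe medians behind the shifts were as follows, all of them values that the selection used. For the more included exons the medians of the alternative exon's probes were higher in heart and muscle. The medians of the flanks and of the skipping junction were nearer those of the other tissues. Their A probe was higher by a median of 0.993 in heart and 0.909 in muscle, C1:A by 1.03 and 0.899, and A:C2 by 0.986 and 0.914. The skipping junction C1:C2 differed by medians of 0.033 in heart and -0.289 in muscle, and the mean of C1 and C2 by medians near 0 (-0.052 in muscle). Single exons went both ways: that mean was at least 1 unit higher in 12 of the 47 in heart and lower by as much in 4, and at least 1 unit higher in 7 in muscle and lower in 7. It lay within 0.5 units of the others for 19 in heart and 23 in muscle. Over all 1059 events, 11.0% were at least 1 unit higher in heart and 6.89% in muscle. The mean of the inclusion junctions was higher in both tissues for 39 of these 47 exons, C1:C2 was lower in both for 18, and both held for 10. Relative to the flanks of the same event, the inclusion junction mean was higher in both tissues for 44 and C1:C2 lower in both for 22.

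Among the more skipped exons, the largest median difference in both tissues was that of C1:C2. Next in size were the flanks in heart and the A probe in muscle. Their C1:C2 junction was higher by a median of 1.17 in heart and 0.790 in muscle, and by at least 1 unit in both tissues for 13 of the 49. The A probe differed by medians of -0.184 in heart and -0.269 in muscle, C1:A by -0.118 and -0.061, and A:C2 by -0.124 and 0.008. C1:C2 was higher in both tissues for 38 of these exons, the mean of the inclusion junctions was lower in both for 18, and both held for 9. The mean of C1 and C2 was higher in heart by a median of 0.546, against 0.160 over all 1059 events, and by at least 1 unit in 18 of the 49. In muscle the median was 0.242, against -0.037 over all events, with 12 exons at least 1 unit higher. The part of this higher level in the index was not tested. Relative to the flanks, C1:C2 was higher in both tissues for 35 of the 49, and the mean of the inclusion junctions was lower in both for 40.

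**Figure D2:**
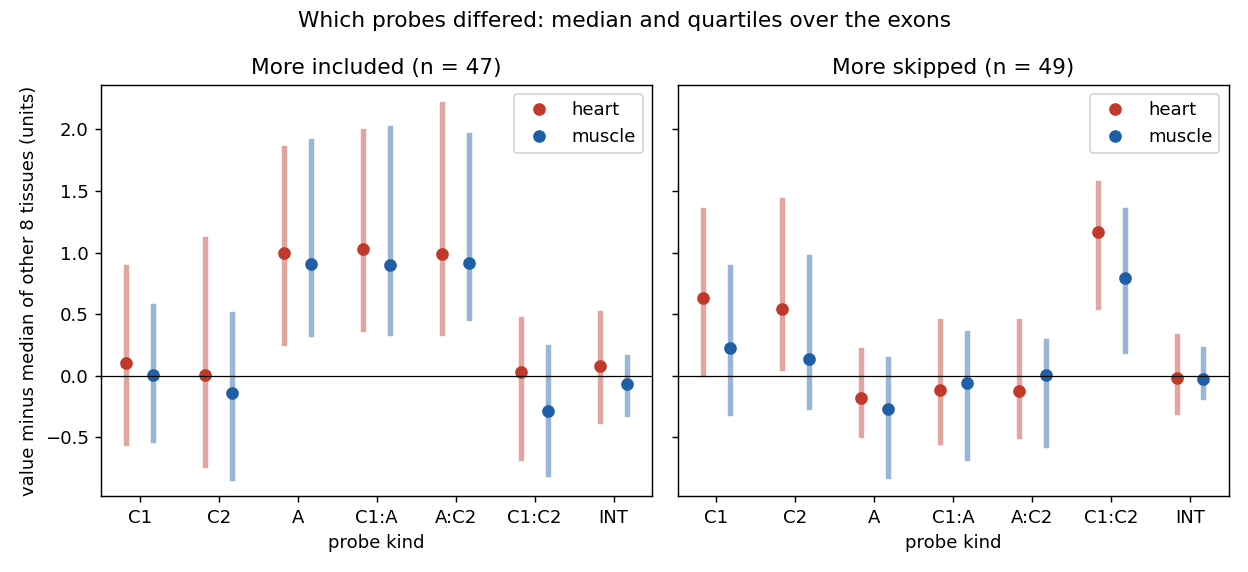
Difference from the median of the other 8 tissues (vertical axis, units) for each probe kind, in heart (red) and muscle (blue). Dots are medians over the exons and bars run from the lower to the upper quartile. In the left panel A, C1:A and A:C2 stand near 1 unit while the other kinds stand near 0, and in the right panel the medians of C1:C2 and of the flanks are above 0.

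The selection averaged the 2 inclusion junctions, and both are set against the same C1:C2 probe, so their likeness is in part built in. Each of them, set against C1:C2, was shifted in the direction of the index in both tissues for 45 of the 47 more included and 46 of the 49 more skipped exons. The exceptions were Ben1274 and Ben1929, where A:C2 failed to follow in at least 1 tissue, Ben1969, likewise through A:C2, and Ben1622 and Ben930 through C1:A. These 5 are named because they are the exceptions, after their values were seen.

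Among the more included exons, Ben1529 had the highest rank by the smaller of its heart and muscle shifts. Its index was 1.44 in heart and 1.43 in muscle, against -3.37 to 0.238 in the other 8 tissues (median -1.41). All other tissues thus lay below, with liver, lung and testis nearest. Its A probe read 4.99 in heart and 4.13 in muscle, against 1.54 to 3.31 elsewhere, and C1:A read 5.22 in heart and 4.85 in muscle, against 0.991 to 3.90. C1:C2, at 2.97 in heart and 2.42 in muscle, lay inside the range of the others, 1.36 to 4.59.

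Ben31 was shared with brain. Its index was 0.765 in heart, 1.06 in muscle and 1.33 in brain, against -2.42 to -1.39 in the remaining 7 tissues. A:C2 read 5.82 in heart, 4.86 in muscle and 4.11 in brain, and no more than 1.98 in any other tissue. A read 5.96 in heart, 5.14 in muscle and 4.58 in brain. Its flanks were also higher, by 2.06 in heart and 1.73 in muscle for the mean of C1 and C2, so more transcript and more inclusion were seen together in this event.

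For Ben1304 the alternative exon was measured clearly in heart and muscle alone. The index was 0.379 in heart and 0.954 in muscle, against -4.17 to -0.973 elsewhere. Its A probe read 4.52 in heart and 4.61 in muscle, against 0.191 to 1.80. Both inclusion junctions followed: C1:A read 4.60 in heart and 4.45 in muscle, against 1.55 at most in the others, and A:C2 read 4.55 in heart and 4.53 in muscle, against 1.91 at most. The flanks were no marker of striated muscle here, since C1 read 5.19 in heart and 4.91 in muscle but also 5.45 in testis and 4.89 in liver. Against the median of the others, the mean of C1 and C2 was 1.81 units higher in heart and also higher in muscle.

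In Ben3472 the shift came with a lower skipping junction in muscle. Its index was -0.271 in heart and -0.719 in muscle, against -4.32 to -1.56 in the others, with salivary nearest. C1:C2 read 3.95 in heart and 2.75 in muscle, against 2.94 to 5.54. C1:A read 3.16 in heart and 1.68 in muscle, against 0.337 to 1.35. The transcript was lower in muscle, with a difference of -1.18 for the mean of C1 and C2, and near the others in heart, with -0.159.

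Ben235 was an exon of heart, muscle, brain and testis. The index was -0.573 in heart and -0.115 in muscle, -0.192 in brain and -0.844 in testis, against -2.98 to -1.93 in the 6 tissues left. A:C2 read 3.31 in heart and 3.91 in muscle, 5.12 in brain and 3.54 in testis, and at most 1.36 elsewhere. C1:C2 was present throughout, at 3.88 in heart and 4.07 in muscle, against 2.94 to 5.33. Both forms of this transcript were therefore measured in heart and muscle.

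By the junction index, Ben4055 likewise lay with brain. Its index was -0.330 in heart and 0.043 in muscle, -0.132 in brain, and -3.44 to -1.20 in the remaining 7. The brain value rested on a dim transcript: C1 read 1.85 there, under the flank limit of 2.1, against 3.81 in heart and 3.02 in muscle. The body index did not set these tissues apart. It was 0.27 in heart, 0.51 in muscle and 0.74 in brain, but also 0.81 in salivary and 0.28 in spleen. C1:A read 3.86 in heart and 2.94 in muscle, against 2.08 at most in the others.

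**Figure D3:**
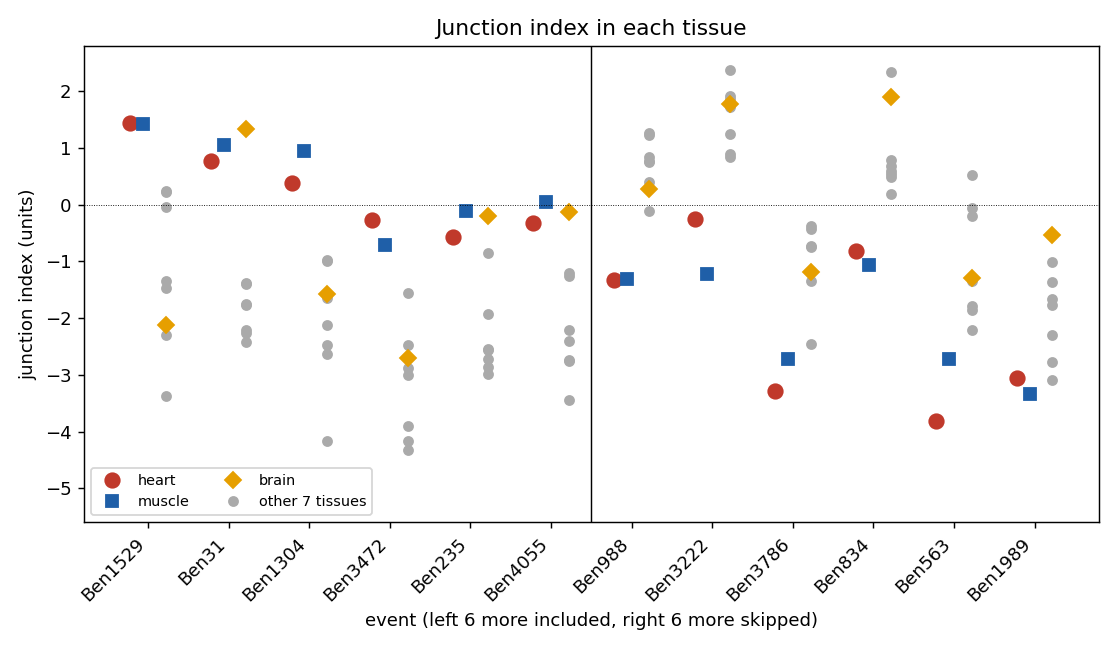
Junction index (vertical axis, units) of the 6 highest ranked exons of each direction, with heart (red circles) and muscle (blue squares) left of brain (orange diamonds) and the other 7 tissues (grey). Heart and muscle stand above all others for Ben1529, Ben1304 and Ben3472, brain lies with them for Ben31, Ben235 and Ben4055, and both stand below all others for Ben988, Ben3222, Ben3786, Ben834 and Ben563.

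Of the more skipped exons, Ben988 ranked highest. Its index was -1.32 in heart and -1.31 in muscle, against -0.117 to 1.26 in the other 8. Heart and muscle reached this alike value from different transcript levels. C1 read 5.48 in heart and 3.48 in muscle, against 2.77 to 3.92, and the mean of C1 and C2 was 1.97 units higher in heart but differed by -0.186 in muscle. C1:C2 read 4.63 in heart and 2.59 in muscle, against 1.08 to 2.23. The inclusion junction A:C2 read 3.47 in heart and 1.16 in muscle, against 1.84 to 3.08, so it was lowest of all tissues in muscle and highest in heart.

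Ben3222 had its highest skipping junction reading in muscle, where its flanks were also higher. The index was -0.246 in heart and -1.22 in muscle, against 0.848 to 2.37. C1:C2 read 2.83 in heart and 5.11 in muscle, against 0.490 to 2.09, a range with no overlap. C1:A read 2.37 in heart and 3.57 in muscle, against 2.11 to 3.10, so in muscle this inclusion junction was also the highest of all tissues. The mean of C1 and C2 was 1.85 units higher in muscle and differed by -0.21 in heart. The body shift in heart was small, at -0.130.

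In Ben3786 the skipping junction was higher in both tissues on a more abundant transcript. Its index was -3.28 in heart and -2.72 in muscle, against -2.46 to -0.381, with testis nearest. C1:C2 read 5.72 in heart and 5.92 in muscle, against 3.03 to 5.31. The A probe was at the level of the others, 1.71 in heart and 1.79 in muscle, against 0.991 to 2.68.

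The index of Ben834 was -0.808 in heart and -1.06 in muscle, against 0.193 to 2.34. Here C1:C2 read 3.20 in heart and 2.82 in muscle, against 1.32 to 2.64, and A:C2 was low in muscle, at 1.46, against 2.62 in heart and 1.90 to 4.84 in the others. Ben563 had an index of -3.82 in heart and -2.71 in muscle, against -2.21 to 0.522, with C1:C2 at 5.31 in heart and 5.07 in muscle, against 1.51 to 4.02. Its C1:A was 0.393 in heart, the lowest of all tissues, and 1.57 in muscle, the highest. The flanks of Ben563 were also higher, by 1.56 units in heart and 1.58 in muscle for the mean of C1 and C2. The part of this higher level in C1:C2 was not tested.

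Ben1989 did not stand apart in full. The index was -3.05 in heart and -3.34 in muscle, against -3.10 in lung to -0.540 in brain, so muscle lay below all the others and heart lay inside their range. Its A probe read only 0.937 in heart and 1.29 in muscle, below or near the median of all INT probes, 1.21. The mean of C1 and C2 was 1.83 units higher in heart and 2.27 in muscle. For an exon this dim, more skipping and more transcript with an exon already absent cannot be told apart.

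Over all 96 exons, 39 had heart and muscle both outside the range of the other 8 tissues. That held for 16 of the 47 more included exons, where 3.12% of all 1059 events did so in that direction, and for 23 of the 49 more skipped ones, where 7.18% did. The rule used these values, so nothing is read from the gap. The index also varied more across the other 8 tissues for both groups. Its SD over these tissues had a median of 0.781 for the more included and 0.580 for the more skipped exons, against 0.402 for all 1059 events.

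**Figure D4:**
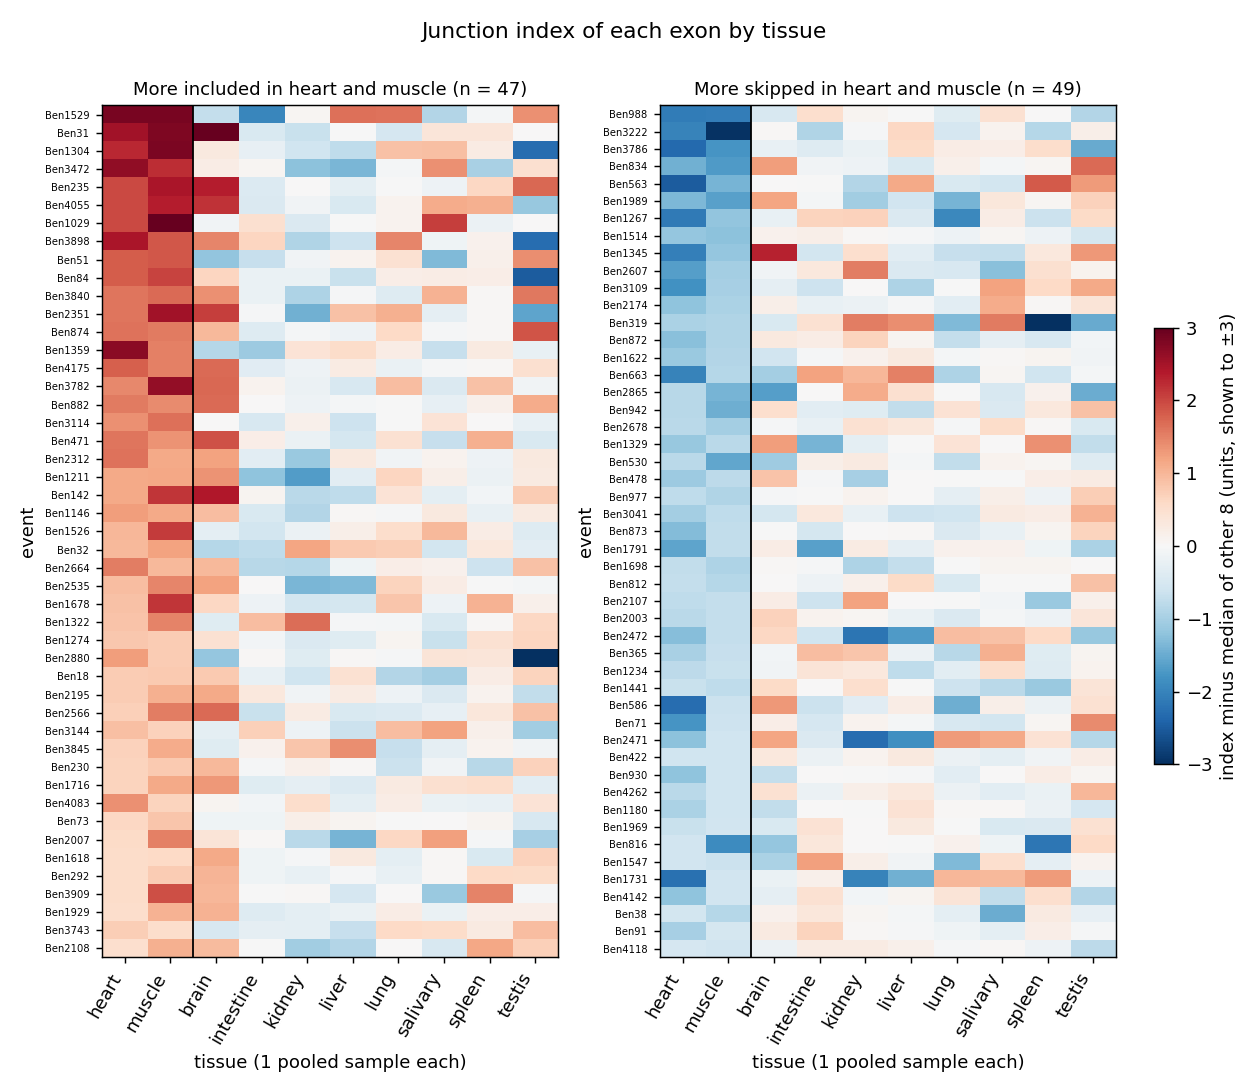
Junction index minus the median of the other 8 tissues (colour, units) for each of the 47 more included exons (left) and 49 more skipped exons (right), in rows ordered by the smaller of the heart and muscle shifts. Columns are tissues with 1 pooled sample each, heart and muscle to the left of the line. Brain is red in many rows of the left panel and has no common colour in the right one.

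Brain was the tissue that most often lay with heart and muscle among the more included exons, though not among the more skipped ones. Each of the other 8 tissues was compared with the median of the remaining 7, a value that used neither heart nor muscle, although the selection used these tissues through their median. For the more included exons, brain was shifted towards heart and muscle by a median of 1.01 units, against 0.071 in the same direction over all 1059 events. The brain index was at least 0.5 units higher in 31 of the 47 exons and at least 0.5 lower in 6, where 20.5% of all events were that much higher in brain. In 29 of the 31 the body index of brain was also higher, which 15.2% of all events showed together with the junction shift. Brain was the highest of the other 8 tissues in 24 of the 47. The share of all events with brain highest was not computed, so nothing is read from that count. For the more skipped exons there was no such lean. Brain differed by a median of -0.024 towards heart and muscle, and lay at least 0.5 units on their side in 11 of 49 and on the opposite side in 12, where 12.9% of all events were that much lower in brain. The background shares are not adjusted for the wider spread of these exons across tissues, and no test was made. Flanks reached the flank limit in all of the other 8 tissues for 57 of the 96 exons. The counts for brain and the other tissues were not restricted to exons whose flanks reached that limit in the tissue counted. The part of dim transcripts in these counts was not tested.

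Among the more included exons, each of the other 7 tissues lay with heart and muscle in fewer exons than brain did. Among the more skipped exons, lung (15), intestine (13), liver (12) and testis (12) did so in slightly more exons than brain (11). On the opposite side lay 10 in intestine, 6 in liver and 15 in testis. Over all 1059 events, the index was that much lower in 10.5% for lung, 12.0% for intestine, 11.6% for liver and 12.9% for brain. The share of all events lower in testis was not computed, and no ranking is read from these counts. Lung was at least 0.5 units higher in 17 of the more included exons, with 8.12% over all events, and lower by that much in 5. It was at least 0.5 lower in 15 of the more skipped exons, with 10.5% over all events, and higher in 4. Lung was thus the only one of the 8 tissues whose median moved towards heart and muscle by over 0.1 units in both groups, by 0.198 and 0.330. Spleen was higher in 13 of the more included exons (10.5% over all events) and lower in 3. Testis went both ways, higher in 19 (23.9% over all events) and lower in 13 (share over all events not computed). Kidney, liver and intestine lay away from heart and muscle more often than with them among the more included exons. The index was at least 0.5 units lower in 19 in kidney (11.0% over all events), 18 in liver (11.6%) and 13 in intestine (12.0%), and higher in 6, 6 and 3. The shares of all events that much higher in kidney, liver and intestine, or lower in spleen, were not computed.

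**Figure D5:**
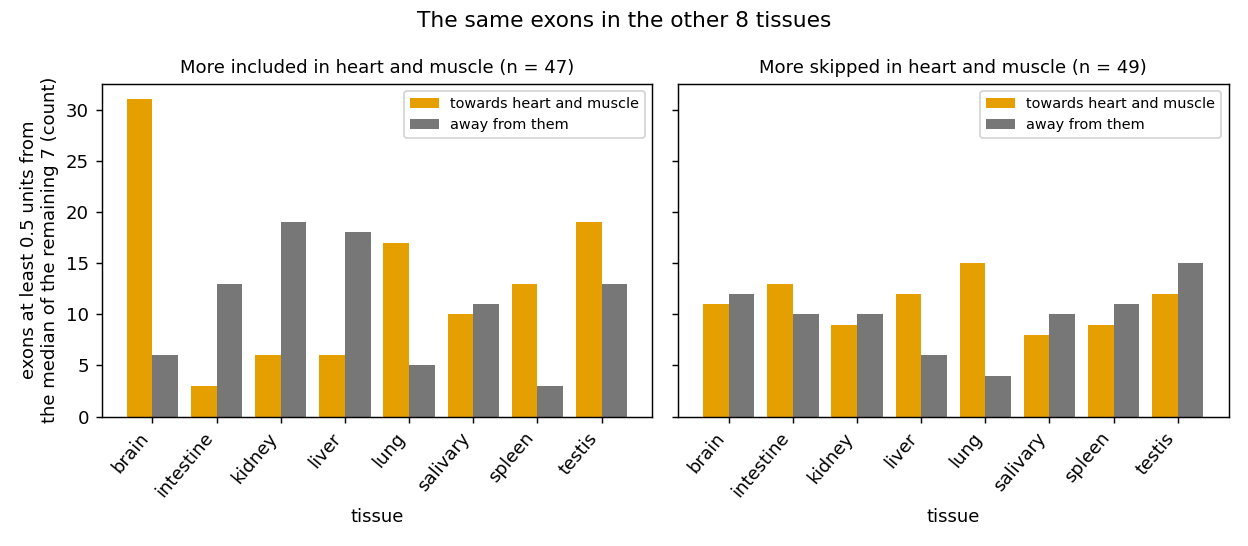
Number of exons (vertical axis) whose junction index in a tissue differed by 0.5 units or more from the median of the remaining 7, towards heart and muscle (orange) or away from them (grey). The counts include exons whose flanks were under the flank limit in that tissue. Brain stands out in the left panel, with 31 exons towards and 6 away, and not in the right, with 11 towards and 12 away.

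Heart and muscle did not always agree in size. Their index differed by a median of 0.356 units over the 96 exons, against 0.328 over all 1059 events, and by less than 0.5 units in 58 of the exons. The shift was larger in muscle for 31 of the 47 more included exons, and larger in heart for 32 of the 49 more skipped ones. Shares over all events were not computed for the counts in this paragraph. The selection used the same values, so no lean to either tissue is read from them. The difference between heart and muscle was at least 1 unit in 13 of the 96 exons. It was widest for Ben1029, with an index of -0.661 in heart and 1.20 in muscle, against -3.06 to -0.573 in the other 8, where salivary was highest. In this event A read 3.03 in heart and 4.16 in muscle, against 0.484 to 1.86, and A:C2 read 3.25 in heart and 4.26 in muscle, against 1.80 at most. C1:A was the junction that parted them, at 1.37 in heart and 2.96 in muscle, and the heart value lay inside the range of the others, which reached 2.28. The heart shift of Ben1029 was accordingly 0.991 by C1:A alone and 3.02 by A:C2 alone.

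The next widest differences were both more skipped exons that shifted mainly in heart. Ben1731 had an index of -5.50 in heart and -3.82 in muscle, against -5.26 to -1.98 in the others. Kidney, at -5.26, and liver, at -4.69, were lower than muscle, so heart lay below all the other tissues for this exon and muscle did not. Its A probe was dim in every tissue, 1.18 in heart and 0.872 in muscle, against 0.529 to 1.36. In Ben586 the index was -3.03 in heart and -1.38 in muscle, against -2.21 to 0.570. Muscle lay inside that range, near intestine at -1.37. Here A:C2 was lower in heart, at 0.866 against 1.10 to 2.28 in the others, while muscle read 1.69. C1:C2 was higher than the median of the others by 1.60 in heart and 0.828 in muscle. The mean of C1 and C2 was also higher, by 1.52 in heart and 0.710 in muscle.

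A few events had flank and C1:C2 readings alike to those of another event. Among all 3126 events, 16 pairs agreed within 0.5 units in C1, C2 and C1:C2 in every tissue, and 3 of these pairs held an exon described here. Whether such events come from 1 gene is not given in the sources used here. Ben2471 and Ben2472 were both more skipped, and their C1, C2 and C1:C2 readings differed by no more than 0.293, 0.272 and 0.181. Their indices of -3.50 and -3.15 in heart and -2.87 and -2.59 in muscle share nearly the same C1:C2 reading, while C1:A differed by up to 0.661 and A:C2 by up to 0.814. Both were lower still in kidney, at -4.55 and -4.07, and in liver, at -4.10 and -3.60.

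Ben3782 and Ben3783 had alike flank and C1:C2 readings but different shifts. The exon of Ben3782 was more included, with an index of -1.24 in heart and -0.042 in muscle, against -3.16 to -0.973 elsewhere. A:C2 read 2.38 in heart and 2.13 in muscle for this exon, and 0.524 at most in the others. The exon of Ben3783 was not selected, with shifts of -1.17 in heart and -0.277 in muscle, and its A:C2 read 3.62 in heart and 3.35 in muscle, against 2.83 to 6.27. In the third pair, Ben882 was more included, with shifts of 1.56 in heart and 1.42 in muscle, whereas Ben3123 had -0.122 in heart and -0.135 in muscle.

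Ben873 and Ben874, picked out after their values were seen, had opposite shifts with closely alike C1:C2 readings. These differed by no more than 0.186 in any tissue, but C1 differed by up to 0.788 and C2 by up to 0.532, so the pair did not meet the limit above. Whether they share a junction is not given in the sources used here. The exon of Ben873 was more skipped, with an index of -1.77 in heart and -1.22 in muscle, against -1.01 to 0.193. The exon of Ben874 was more included, with an index of -0.011 in heart and -0.085 in muscle, against -2.04 to 0.230, where testis alone lay above both. For Ben873 the junction A:C2 read 0.498 in heart and 0.693 in muscle, against 1.34 to 2.72. For Ben874 C1:A read 2.70 in heart and 1.97 in muscle, against 0.253 to 2.07. The A probe of Ben874 read 3.21 in heart and 2.84 in muscle, against 0.724 to 2.73, while that of Ben873 read 2.64 in heart and 2.66 in muscle, inside the range of 2.41 to 2.89. The body index of Ben873 was shifted by -0.477 in heart and -0.308 in muscle, with the mean of C1 and C2 higher by 0.393 and 0.242.

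The INT probes entered no part of the selection, and their median deviations were close to 0, with a sign in heart that depended on the scaling. Their median deviation from the other 8 tissues was 0.080 in heart and -0.065 in muscle for the more included exons, and -0.021 and -0.025 for the more skipped ones. Over all 1059 events it was -0.032 in heart and -0.001 in muscle. Deviations of at least 0.5 units in either direction were found in 35.4% of the 96 exons in heart and 18.8% in muscle, against 30.3% and 16.6% of all events. Single exons departed from this. Ben1274 had the INT probe at 3.21 in heart and 0.509 in muscle, against 0.268 to 1.41, in an event whose C1 also read highest in heart, at 5.99. Ben1322 had it at 0.027 in heart and 3.30 in muscle, against -0.068 to 3.58, the highest being spleen, while its index was -1.19 in heart, -0.551 in muscle and -2.01 in spleen. The lowest INT deviations were those of Ben2195, with 2.11 in heart and 1.40 in muscle against 1.05 to 4.07, and Ben292, with 0.208 in heart and 0.473 in muscle against 0.259 to 2.16.

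The same criteria were applied to 3 other pairs of tissues, to place the number of exons. Kidney and liver had 145 of 1094 events (13.3%), lung and salivary 73 of 1088 (6.71%), and muscle and spleen 36 of 1007 (3.57%), against the 96 of 1059 for heart and muscle. Between the tissues of a pair, the index of the selected exons differed by a median of 0.356 for heart and muscle, 0.257 for kidney and liver, 0.180 for lung and salivary and 0.300 for muscle and spleen. Among events with both junction shifts past the limit, the body index went along in 65.8% for heart and muscle, 64.7% for kidney and liver, 75.3% for lung and salivary and 55.4% for muscle and spleen. These pairs serve as comparator tissues for each other, and with 1 sample per tissue the differences in number were not tested.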

How the data were processed

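Per the labels, the arrays were hybridised with total RNA pooled from CD1 mice, with 10 tissues and 1 sample for each. Each sample has 21882 probe values, used here as a score as deposited, on a compressed scale whose base is not stated. What the authors did before deposit (scanner, dyes, background, normalization) is not given in the sources used here. All sample columns were used. Arrays were centred to equal medians by adding back the mean of the 10 medians. Indices and the selection were computed as the report describes, with the median of the other 8 tissues as comparator. The exons and criteria were chosen with earlier results of these data known. Named exons are the 6 highest ranked in each direction by the smaller of the 2 shifts, the 2 just inside and 2 just outside the limit, the 3 with the widest difference between heart and muscle, and the 2 with the highest and 2 with the lowest INT deviation. Others were named after their values were seen, as stated there. Neither models nor p-values were computed, and precision is limited by having 1 array per tissue. The steps were tested on simulated data. Alternatives were other scalings, comparators, limits and indices. Planned gene lists and sequences were not used, since the table pairs events with neither. Python 3.11.15, numpy 2.4.6, pandas 2.3.3 and matplotlib 3.10.9 were used.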

Additional observations from a re-analysis of the deposited data

How the results depend on the processing

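No paired analysis was possible because there was 1 sample per tissue and no test was run. The 47 more included and 49 more skipped exons depended on the limits. With flanks at 1.5 or more there were 71 more included and 73 more skipped exons, 128 for lung and salivary and 84 for muscle and spleen. With flanks at 2.6 or more there were 19 and 28 for heart and muscle, 84 for kidney and liver, 44 for lung and salivary and 21 for muscle and spleen. With a shift of 1 unit there were 23 and 11, and 52, 10 and 9 for the other pairs. When the inclusion junction mean and C1:C2 each had to reach the 95th percentile of the INT probes (3.14) in a tissue of the pair or in the median of the others, 23 and 13 exons were left, and 36, 9 and 7 in the other pairs. These limits change counts by construction. Other scalings, the mean as comparator, single junctions and leaving out each comparator tissue moved no count by over 1.5 times. Of the 47 and 49, 42 and 46 were found again after quantile normalization, 40 and 38 with the mean, 37 and 41 with C1:A alone, 39 and 34 with A:C2 alone, and at least 40 and 40 without a comparator tissue. The median INT deviation in heart over the 96 exons, 0.0026, turned to -0.032 after quantile normalization and -0.042 as deposited. The heart shift of Ben1274 turned to -0.139 when the index used A:C2 alone. The cause was not tested. Brain lay with heart and muscle in 31 of the more included exons, in 27 after quantile normalization and in 23 by the body index alone, alternatives chosen after seeing the data.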
